A study of Mus musculus with 6 samples.

Results

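Apelin (Apln) and the apelin receptor (Aplnr) are 2 of the 10989 genes in a table that compares endothelial cells sorted from mouse brain with the brain cell suspension they came from. Both were found by gene symbol, and the rule that names them uses no measured value, although the pair was proposed with earlier results of these data known. RNA was sequenced from 6 libraries. The 3 Input libraries hold the suspension, and the 3 Positive libraries hold cells sorted as EGFP positive, CD31 positive and CD11b negative. All 6 come from brains of mice labelled Tie2-cre+; NuTRAP+, and every title also carries the label WT. Replicate numbers 1222, 1223 and 1227 occur in both fractions. NuTRAP is a reporter that puts EGFP on ribosomes and mCherry on nuclei once Cre has acted. Cre is driven here by the Tie2 promoter, which is active in endothelium and also in part of the blood cell lineage. The labels give no age, sex or treatment. The design text calls the replicates biological, but no label says what a number marks, and p-values cover only the spread among these 6 libraries.

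Apelin is a secreted peptide cut from a longer precursor, and its receptor, also called APJ, is a G protein-coupled receptor. The pair guides vessel growth and calibre: in growing vessels apelin is made mainly by the endothelial tip cells at the front of a sprout, and hypoxia raises its transcription. The receptor is found on endothelium of veins and sprouting vessels and couples to inhibitory G proteins, with nitric oxide release among its effects.

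Apln lies on chromosome X from 48025146 to 48034852 on the minus strand, and Aplnr on chromosome 2 from 85136360 to 85139923 on the plus strand (mm10, as the deposited table gives them). In GENCODE M21, which uses the same assembly, Apln has 3 exons of which 2 carry coding sequence, and the main transcript of Aplnr is a single exon. In that annotation no other gene overlaps either one on either strand. The coding sequence of the ligand is short enough to show whole, 234 bases for a precursor of 77 codons with the stop left out. The capitals mark the last 13 codons before the stop, which encode the apelin-13 peptide that binds the receptor. For the receptor, of 377 codons, the 129 bases of codons 104 to 146 are shown. The capitals there mark the 3 codons of the DRY motif, the mark of this receptor class at the inner end of the third membrane helix. Both are printed 5′ to 3′ on the coding strand, from the GENCODE M21 transcripts.
Apln coding sequence: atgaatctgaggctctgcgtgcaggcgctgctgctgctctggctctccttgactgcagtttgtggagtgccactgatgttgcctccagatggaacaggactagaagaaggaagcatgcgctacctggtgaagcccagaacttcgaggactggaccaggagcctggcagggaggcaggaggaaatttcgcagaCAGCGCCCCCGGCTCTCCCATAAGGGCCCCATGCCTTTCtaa
Aplnr coding sequence, codons 104 to 146: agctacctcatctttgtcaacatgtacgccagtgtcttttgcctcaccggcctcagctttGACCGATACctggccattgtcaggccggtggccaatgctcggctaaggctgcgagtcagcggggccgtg

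The receptor transcript rose about 10.1-fold in the sorted endothelial cells, and the ligand transcript rose 1.62-fold. Levels are CPM, the rounded estimated counts relative to library sizes corrected by TMM. Aplnr stood at 12.3, 24.4 and 9.72 CPM in Input 1222, 1223 and 1227 and at 119.7, 215.5 and 110.9 CPM in Positive of the same numbers. The lowest Positive library was therefore well above the highest Input library, and in both fractions 1223 was the highest of the 3. Its log2 fold change was 3.34 ± 0.40 (SE; 3 against 3 libraries), with an adjusted p of 0.000138 in edgeR's quasi-likelihood test with Benjamini-Hochberg adjustment. Apln stood at 135.4, 124.5 and 165.1 CPM in Input 1222, 1223 and 1227 and at 202.1, 294.0 and 194.4 CPM in Positive. The fractions again did not overlap, but the gap was narrow, and Positive 1223 was high while Input 1223 was the lowest library of all. Its log2 fold change was 0.69 ± 0.19, with an adjusted p of 0.0141 in the same test. Of all tested genes, 55.5% were called in either direction, 26.1% higher and 29.4% lower in Positive, and for 31.8% all Positive libraries lay above all Input libraries, so a rise as such is common in this comparison.

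**Figure D1:**
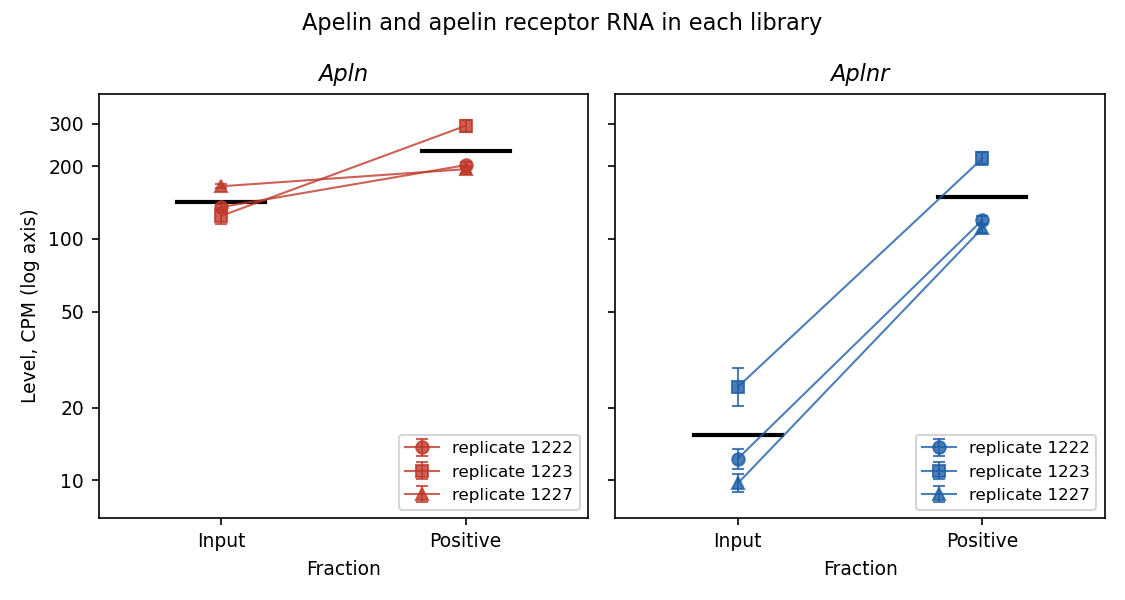
Level of Apln (left) and Aplnr (right) in CPM on a log axis, in Input and Positive; lines join libraries of the same replicate number, error bars are 95% Poisson intervals of the counts, and black bars are means of 3 libraries. Aplnr lies between 9.72 and 24.4 CPM in Input and between 110.9 and 215.5 CPM in Positive, and Apln between 124.5 and 165.1 CPM and between 194.4 and 294.0 CPM.

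The size of the receptor's rise placed Aplnr 8th from the top of 10989 genes by log2 fold change, and Apln 2132nd. Within the replicate numbers the receptor's log2 difference was even, at 3.23 (1222), 3.12 (1223) and 3.45 (1227). The ligand's was uneven, at 0.58, 1.24 and 0.24, although Positive was above Input in all 3. With the replicate number as a block, Aplnr kept its size (log2 3.32) and its SE became 0.12, while Apln was 0.67 ± 0.19. Without both libraries of 1223 Apln no longer passed, at log2 0.40 with an adjusted p of 0.0702. The call for Apln held in each of the other alternatives run, with log2 values from 0.48 to 0.93 and adjusted p from 0.00253 to 0.0445. Scaled to library size alone, with no TMM factor, Aplnr had log2 3.18 (adjusted p = 0.000155) and Apln 0.54 (adjusted p = 0.0401). That scaling moved the median of all genes by -0.16.

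The depth behind the values differed 10.95-fold between libraries, with 4814966 and 4772866 estimated counts in Input and Positive 1223 and from 19708830 to 52283556 in the others. The smallest count of either gene was 122 for Aplnr in Input 1223, whose 95% Poisson interval runs from 20.2 to 29.1 CPM. That interval lies above those of the other Input libraries (11.2 to 13.5 CPM in 1222 and 8.92 to 10.6 CPM in 1227). The 1326 counts of Apln in Positive 1223 give 278.4 to 310.3 CPM, above 196.2 to 208.1 CPM in Positive 1222 and 188.2 to 200.8 CPM in Positive 1227. These intervals cover counting error only, not the spread between separate samples. Input 1223 also held the highest sum of pan-endothelial marker levels of the Input libraries (5162 CPM, against 4072 and 4170), and of erythroid (10017 CPM) and choroid plexus (6278 CPM) markers. Its microglial sum was the lowest (5284 CPM, against 10180 and 9611). In Positive, the pan-endothelial sum differed little (30593, 31786 and 31222 CPM in 1222, 1223 and 1227) and the pericyte sum was lowest in 1223 (1339 CPM, against 1685 and 2086). The part of these differences in the levels of Apln and Aplnr was not tested.

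**Figure D2:**
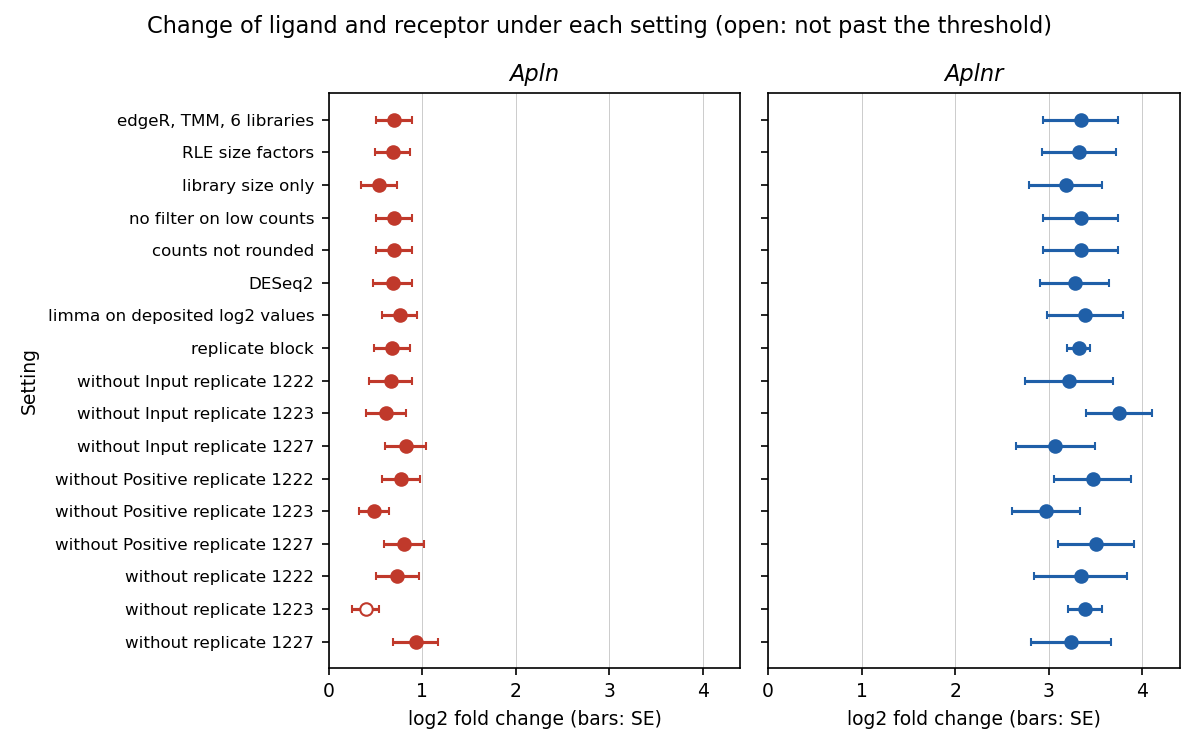
log2 fold change of Apln (left) and Aplnr (right), Positive against Input, under each setting; bars are SE, and an open symbol marks a value that did not pass an adjusted p of 0.05. The open symbol is Apln without both libraries of replicate 1223, at 0.40.

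Per kilobase of exon the ligand was the more abundant transcript in both fractions. Apln stood at 45.0 ± 6.68 and Aplnr at 4.18 ± 2.11 CPM per kilobase in Input (SD, n = 3), and at 73.1 ± 17.6 and 40.2 ± 15.7 CPM per kilobase in Positive. The exon lengths are 3.149 and 3.699 kilobases in GENCODE M21, and which gene models were used for counting is not stated in the labels. With 0.5 CPM added to both, the CPM of the receptor amounted to 0.0943, 0.199 and 0.0617 of that of the ligand in Input 1222, 1223 and 1227, and to 0.594, 0.733 and 0.572 in Positive. The Positive ratios all lay above the Input ratios. On the log2 scale (CPM plus 0.5) the ratio was 2.58 higher in Positive, and the receptor gained more than the ligand in every replicate number (2.66, 1.88 and 3.21). A two-sided exact permutation test over the libraries gave p = 0.1, the smallest that 3 against 3 can give.

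The suspension itself contains endothelial cells, so both genes were also set against 18 pan-endothelial marker genes (such as Pecam1, the gene of CD31, and Cdh5, the gene of VE-cadherin) in the same library. All 18 markers rose, by a median of 2.79 on the log2 scale and from 2.59 to 3.20, beside a median of 0.03 over all tested genes. Apln rose less than each of the 18, and the fold change of Aplnr was above each of them. Relative to the mean log2 level of these markers, Apln was 2.15 lower in Positive than in Input on the log2 scale, with values of -0.31, -0.75 and -0.09 in Input 1222, 1223 and 1227 and of -2.67, -2.16 and -2.78 in Positive. The fractions did not overlap (exact permutation p = 0.1, the smallest possible). Aplnr relative to the same markers stood at -3.71, -3.08 and -4.11 in Input and at -3.42, -2.61 and -3.59 in Positive. These fractions overlapped, and the difference of 0.43 had an exact permutation p of 0.4, although Positive was above Input within each number (by 0.30, 0.47 and 0.52). Both permutation tests leave the pairing by number unused. With the numbers as pairs, an exact sign-flip permutation test gave p = 0.25 for Apln and for Aplnr, the smallest that 3 pairs can give. The difference for Aplnr was 0.13 without Positive 1223, 0.19 without Input 1227 and 0.71 without Input 1223. In bulk RNA, a change in the number of cells of a type cannot be told apart from a change in RNA per cell.

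**Figure D3:**
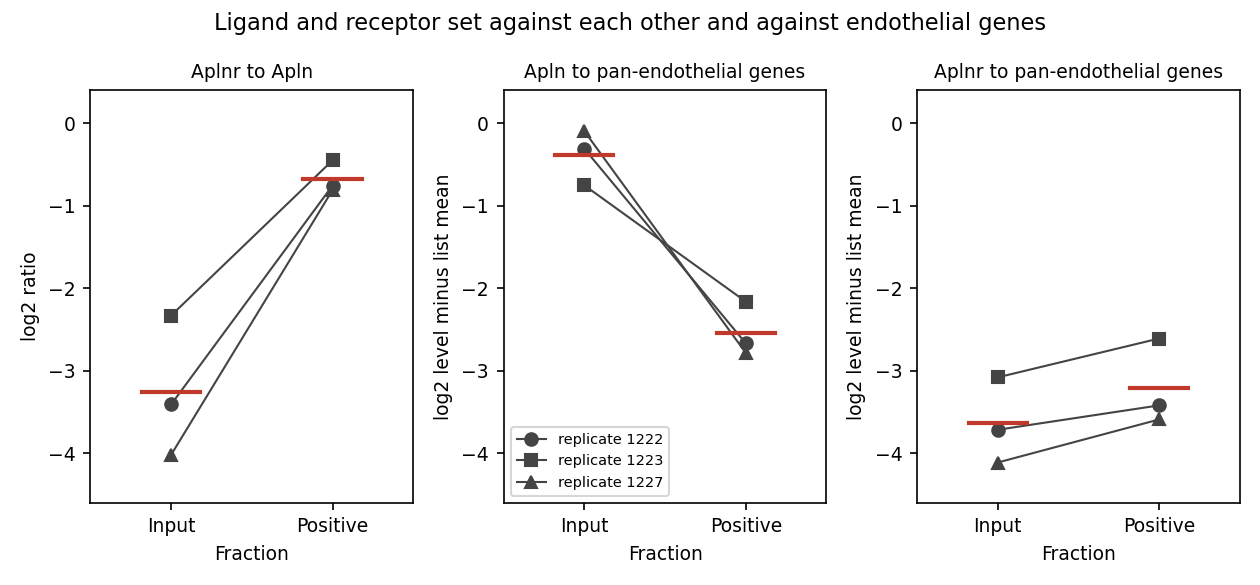
log2 ratio of Aplnr to Apln (left), and log2 level of Apln (middle) and Aplnr (right) minus the mean log2 level of 18 pan-endothelial genes, per library; lines join replicate numbers and red bars are means of 3 libraries. The receptor to ligand ratio is higher in Positive by 2.58, Apln relative to endothelial genes is lower by 2.15, and Aplnr relative to them has overlapping fractions.

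The sort can be read from the genes of the gate and from other marker lists. Pecam1 (log2 2.85 ± 0.13) and Tek, the gene of Tie2 (2.76 ± 0.18), rose, and Itgam, the gene of CD11b, fell by 2.77 ± 0.31 on the log2 scale. The cells were sorted on CD31, CD11b and Tie2-driven EGFP, so these changes are partly set by the gate. Of markers of astrocytes 9 of 9 fell, of neurons 8 of 8, of oligodendrocytes 8 of 8, of oligodendrocyte precursors 7 of 7, of ependymal cells 6 of 6, of choroid plexus 6 of 6 and of microglia 10 of 10. Their summed levels in Positive remained above 0, for example 49 to 73 CPM for neurons and 1149 to 2004 CPM for microglia. In Positive 1223 all ependymal markers and all neuronal markers but Stmn2 missed the authors' raw value cut-off. So did Gpr17, Olig2, Enpp6, Gfap, Opalin, Folr1 and Otx2. These markers were kept only through Input, so their falls are partly fixed by that rule. Pericyte markers rose in 9 of 10 cases (median log2 1.18; 5 without both libraries of 1227), with summed levels of 725 to 864 CPM in Input and 1339 to 2086 CPM in Positive. Perivascular macrophage markers rose in 7 of 8 cases, but the count was 0 without both libraries of 1222 or of 1223 or without Input 1227, 1 without Input 1223, 2 without Positive 1222 and 3 without Input 1222. Their sum was 3446 CPM in Positive 1222 against 1370 and 660 CPM in 1223 and 1227. Of blood leukocyte markers 3 of 4 fell, and 1 rose, Ly6c2, at log2 1.72. Ly6c2, at 9.59 CPM in Input 1223, was kept only through Positive. Ccr2 and S100a9, at 0.89 and 1.33 CPM in Positive 1223, were kept only through Input. The directions of these genes are partly fixed by the raw value cut-off. Smooth muscle markers gave 0 rises and 1 fall among 5 tested (2 rises and 0 falls without Input 1223), and fibroblast markers 6 falls among 6 (3 without both libraries of 1222). Col1a1 and Dcn (fibroblast) were kept only through Input, and Higd1b (pericyte) and Ms4a7 (macrophage) only through Positive. These falls and rises are partly fixed by the cut-off as well. Beside all these counts, 26.1% of all tested genes were called higher and 29.4% lower. The fold change of Apln thus lay below the median of the pericyte markers, above that of the smooth muscle markers (0.36), and above every marker of the neural lists. The part of pericytes and macrophages in the values of Apln and Aplnr was not tested.

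**Figure D4:**
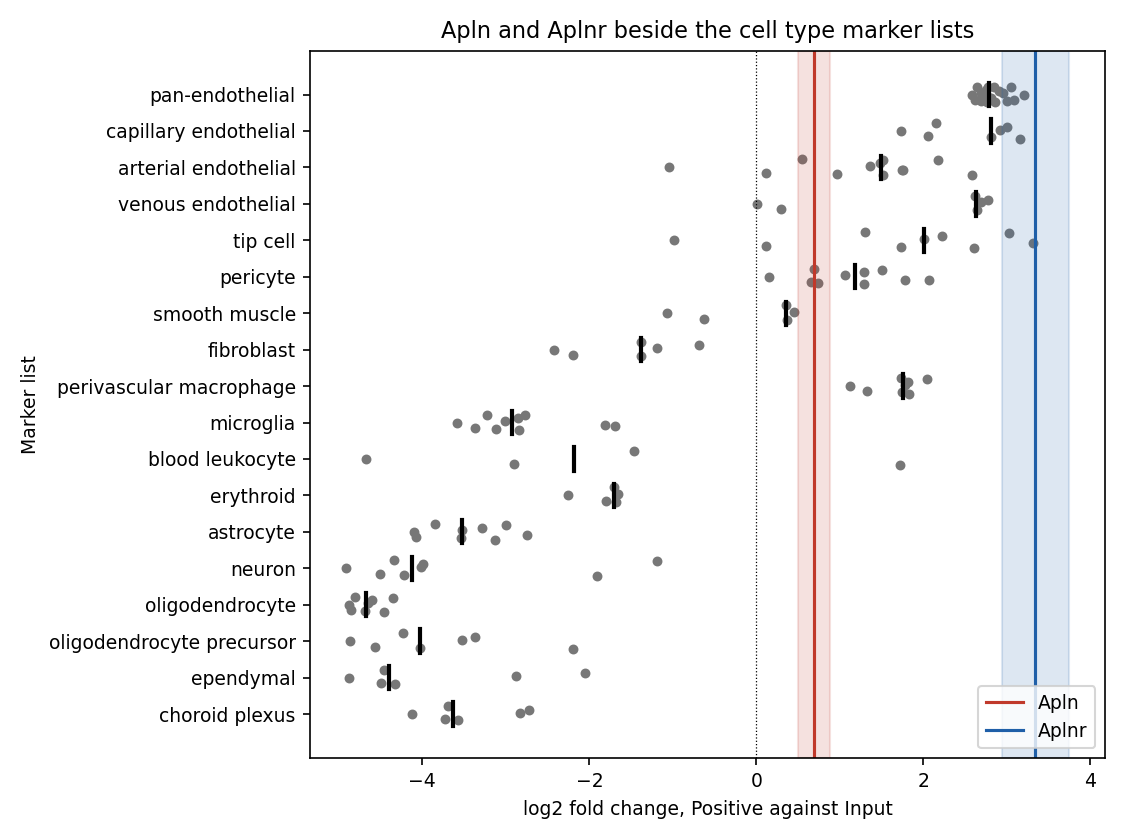
log2 fold change, Positive against Input, of each tested marker gene (grey points, 1 row per list; black bars are list medians); the red and blue lines are Apln (0.69) and Aplnr (3.34) with their SE as shaded bands. All 18 pan-endothelial markers lie between the lines of Apln and Aplnr.

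The genes whose profiles over the 6 libraries came closest to each member were named by a fixed measure. Likeness was the root mean square difference of log2 levels after each gene was centred on its own mean. A fold change and an order of libraries like those of the member follow from this choice and are no separate result. Nearest to Aplnr were Myct1 (0.27), Pcdh12, an endothelial protocadherin (0.29), Slc38a5, an amino acid transporter (0.31), Adamtsl2 (0.33) and Magix (0.34). These 5 genes rose by log2 2.64 to 3.39, and each was highest in 1223 among the Input libraries and among the Positive libraries, as Aplnr was. Slc38a5, for instance, stood at 36.3, 81.5 and 32.6 CPM in Input 1222, 1223 and 1227 and at 264.8, 400.7 and 253.9 CPM in Positive. Nearest to Apln were Rnf138 (0.098), Rbm43 (0.099), Acad12 (0.10), L3mbtl2 (0.11) and Terf2 (0.12), with log2 fold changes from 0.54 to 0.79. Each was lowest in Input 1223 and highest in Positive 1223. Of these 5, 4 were called higher and Acad12 was not (adjusted p = 0.0602), although it passed in 2 of 16 alternatives. The other calls were lost in 8 (Rnf138), 5 (Rbm43), 8 (L3mbtl2) and 9 (Terf2) of the 16, all of them without both libraries of 1223 (log2 from 0.27 to 0.45) and with library size alone (0.38 to 0.63). The difference between Apln and Aplnr themselves by this measure was 1.39, and Aplnr stood 9032nd in the order of likeness to Apln.

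Around the pair, 25 of 27 other genes listed for apelin signalling were tested, and 13 rose, 4 fell and 8 did not pass, beside 26.1% of all tested genes called higher and 29.4% called lower. The median log2 fold change was 0.66, beside 0.03 over all tested genes. None had a fold change above that of Aplnr, and 12 lay above that of Apln. All 4 falls were among the G protein and arrestin genes. Without both libraries of 1227, 12 rose and 1 fell. The second known ligand of the receptor, Apela, and Mme, a peptidase that degrades apelin, were not analysed here.

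**Figure D5:**
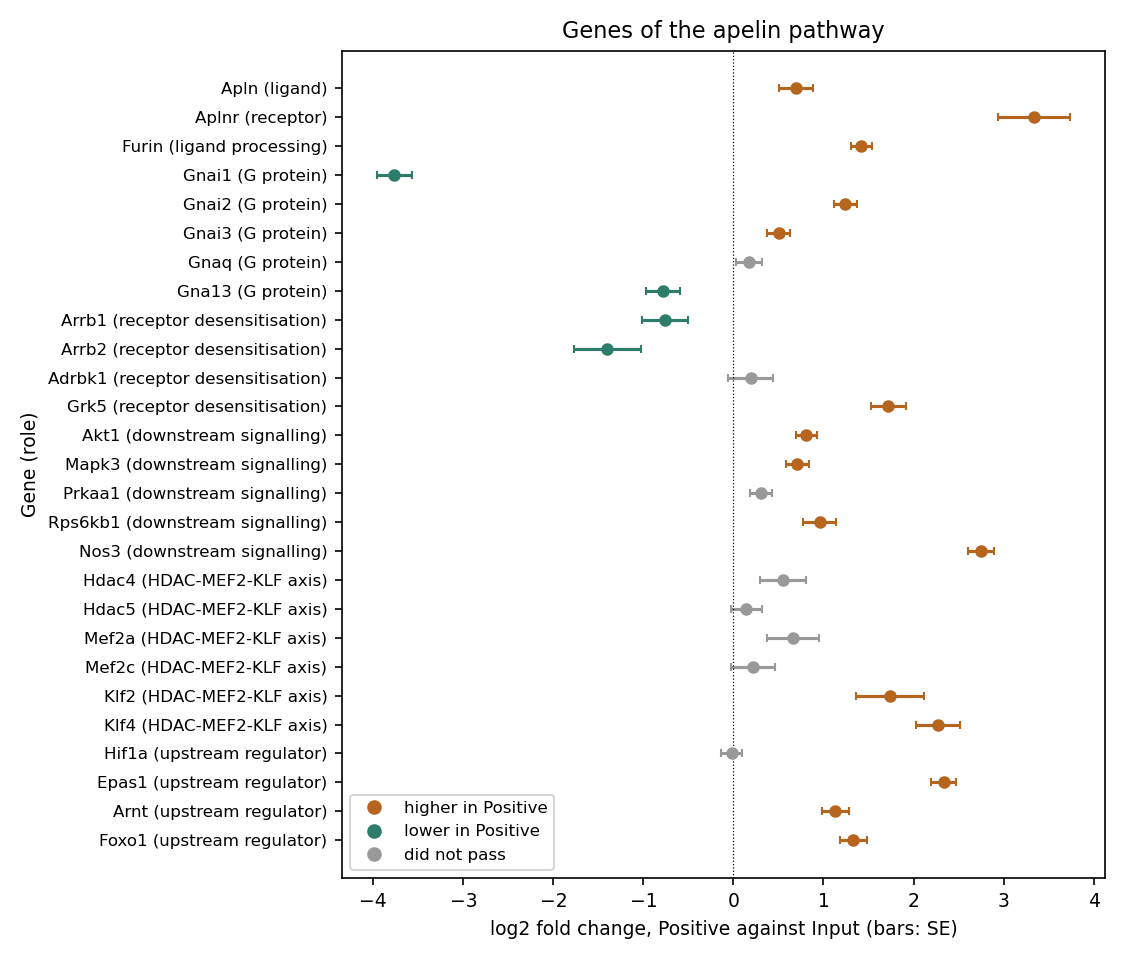
log2 fold change with SE, Positive against Input, of Apln, Aplnr and the 25 other tested genes of the apelin list, with the role in parentheses; orange passed as higher, green as lower, grey did not pass. Aplnr has the highest value and Gnai1, which was kept only through Input, the lowest, at -3.77.

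Furin, which encodes the convertase that cuts the apelin precursor, rose. It stood at 83.9, 73.5 and 80.7 CPM in Input and at 199.7, 217.5 and 222.1 CPM in Positive (log2 1.42 ± 0.12), with no overlap between fractions and an adjusted p of 2.12e-05 in edgeR.

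Of the 5 G protein genes, the inhibitory alpha subunits that the receptor can use moved in opposite directions. Gnai2, the most abundant of them, rose from 793.4 ± 50.6 to 1877 ± 110 CPM (SD, n = 3; log2 1.24 ± 0.13), and Gnai3 rose by log2 0.50 ± 0.12. Gnai1 fell from 166.4 ± 26.3 to 12.1 ± 2.12 CPM (log2 -3.77 ± 0.20). At 10.9 CPM in Positive 1223, Gnai1 missed the authors' raw value cut-off there. It was kept only through Input, so its fall is partly fixed by that rule. Gna13, the alpha subunit through which the receptor signals to class II histone deacetylases, fell by 0.79 ± 0.19 on the log2 scale, and Gnaq did not pass (log2 0.17 ± 0.14). Without both libraries of 1227 neither Gnai3 (log2 0.49) nor Gna13 (-0.68) passed.

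Among genes that switch the receptor off, the kinase gene Grk5 rose from 18.9 ± 4.42 to 61.4 ± 1.52 CPM (log2 1.72 ± 0.19). The arrestin genes Arrb1 (log2 -0.76 ± 0.26) and Arrb2 (log2 -1.40 ± 0.37) fell, with adjusted p values of 0.0322 and 0.0117 in edgeR. Neither call held throughout: Arrb1 did not pass without Input 1222 (log2 -0.64), Input 1227 (-0.58), Positive 1223 (-0.73), Positive 1227 (-0.73), both libraries of 1222 (-0.71) or both of 1227 (-0.54), nor by limma on the deposited log2 values (-0.61), and Arrb2 did not pass without both libraries of 1223 (-1.33) or of 1227 (-1.15). Arrb2 was also uneven in Positive, at 41.7 CPM in 1222 against 16.2 and 16.0 CPM in 1223 and 1227, and the microglial marker sum was also highest there (2004 CPM, against 1170 and 1149 CPM); the part of microglial RNA in it was not tested. Adrbk1, the gene of the receptor kinase GRK2, did not pass (log2 0.19 ± 0.25).

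Downstream, Nos3, the endothelial nitric oxide synthase, had the largest rise of the other pathway genes, from 104.3 ± 12.3 to 699.5 ± 30.3 CPM (log2 2.75 ± 0.14). Akt1 (log2 0.81 ± 0.12), Mapk3 (0.71 ± 0.13) and Rps6kb1 (0.96 ± 0.18), which encode kinases activated by the receptor, also rose. Prkaa1 (0.31 ± 0.12, adjusted p = 0.0623), a kinase subunit gene, did not pass, but it passed with the replicate block (0.31, adjusted p = 0.0453). Klf2 and Klf4, flow-responsive factors induced through MEF2, rose by log2 1.74 ± 0.38 and 2.28 ± 0.24. Klf2 was uneven in Positive, at 1485, 676.9 and 637.5 CPM in 1222, 1223 and 1227, all above the Input range of 175.9 to 340.1 CPM. Of Hdac4, Hdac5, Mef2a and Mef2c, which stand between the receptor and these factors, none passed in edgeR (log2 0.55, 0.14, 0.66 and 0.22). Hdac4 passed by limma on the deposited log2 values (log2 0.67, adjusted p = 0.0306). Mef2a passed with the replicate block (log2 0.71, adjusted p = 0.00966), without Input 1222 (0.98), without both libraries of 1222 (0.78) and in DESeq2 (0.66).

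Of 4 regulators of apelin transcription, 3 rose. Epas1, the gene of the hypoxia-inducible factor HIF-2alpha, rose from 870.0 ± 73.4 to 4396 ± 73.9 CPM (log2 2.34 ± 0.14), its partner Arnt by log2 1.13 ± 0.15, and Foxo1 by log2 1.33 ± 0.15. Hif1a did not pass, at 148.8 ± 11.9 CPM in Input and 146.9 ± 5.68 CPM in Positive (log2 -0.02 ± 0.12, adjusted p = 0.894). Among 10 tested genes known to be raised by hypoxia, 2 rose, 4 fell and 4 did not pass (median log2 0.01), beside 26.1% and 29.4% of all tested genes called higher and lower. With 10 genes, these counts are near those shares. The rises were those of the glucose transporter Slc2a1 (log2 2.36 ± 0.18) and Ldha (0.90 ± 0.14), and the falls those of Vegfa (-3.57 ± 0.24), Pgk1, P4ha1 and Pdk1. Vegfa, at 8.43 CPM in Positive 1223, missed the authors' raw value cut-off there. It was kept only through Input, so its fall is partly fixed by that rule. Ndrg1 did not pass (0.37 ± 0.16). Apln, itself a target of hypoxia-inducible factors, had a higher fold change than 8 of the 10. With the replicate block, 4 of the 10 rose.

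Apelin is a marker of tip cells, and of 9 other tested tip cell genes 7 rose, 1 fell and 1 did not pass (median log2 2.01). The shares over all tested genes were 26.1% called higher and 29.4% called lower. Adm, Plaur and Igfbp3, at 1.80, 6.19 and 6.39 CPM in Input 1223, missed the authors' raw value cut-off there. These genes were kept only through Positive, so their rises are partly fixed by that rule. Angpt2, a tip cell ligand of Tie2, came closest to Aplnr in size, rising from 14.2 ± 2.14 to 138.2 ± 20.3 CPM (log2 3.31 ± 0.18). The Notch ligand gene Dll4 rose by log2 3.02 ± 0.17, Pdgfb by 2.22 ± 0.13 and the matrix gene Nid2 by 2.01 ± 0.13. The chemokine receptor gene Cxcr4 fell by 0.99 ± 0.20 on the log2 scale, and Unc5b did not pass (0.12 ± 0.16). The fold change of Apln was therefore below those of 7 of these 9 genes. Esm1 and Kcne3 were not analysed here. In the lists of vessel types, 4 of 6 venous, 9 of 12 arterial and 7 of 7 capillary genes rose (with medians of 2.63 for venous, 1.5 for arterial and 2.81 for capillary genes on the log2 scale), and none of these genes had a fold change above that of Aplnr. Beside these counts, 26.1% of all tested genes were called higher. Among the venous genes Ephb4 (2.69 ± 0.12), Vwf (2.61 ± 0.25) and Slc38a5 (2.64 ± 0.37) rose, while Nr2f2 (0.30 ± 0.16) and Vcam1 (0.01 ± 0.24) did not pass. Hey2 fell among the arterial genes (-1.04 ± 0.26), a call lost without both libraries of 1222 (-0.91), and Jag2 (2.58 ± 0.13) and Sema3g (2.18 ± 0.17) rose. Hey2, at 9.31 CPM in Positive 1223, missed the raw value cut-off there. It was kept only through Input, so its fall is partly fixed by that rule.

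Of 16 other tested G protein-coupled receptors known from endothelium, 13 rose, 1 fell and 2 did not pass (median log2 1.48), and Aplnr had a higher fold change than each of them. Of all tested genes, 26.1% were called higher and 29.4% lower. The adhesion receptor genes Eltd1 and Gpr116 (now Adgrl4 and Adgrf5) rose by log2 2.89 ± 0.17 and 2.80 ± 0.16. S1pr1, the receptor of sphingosine 1-phosphate, rose by 0.39 ± 0.13 (adjusted p = 0.0355), a call that was lost without Input 1222 (0.31), without each Positive library (0.40, 0.36 and 0.40), without both libraries of any number (0.32, 0.37 and 0.47) and with scaling to library size alone (0.24). The adenosine receptor gene Adora2b fell by 3.59 ± 0.28 on the log2 scale. At 1.33 CPM in Positive 1223, Adora2b missed the authors' raw value cut-off there and was kept only through Input. Adora2a, among the rises, stood at 9.39 CPM in Input 1223 and was kept only through Positive. Both changes are partly fixed by that rule. The table names 11 paralogs of Aplnr, among them the angiotensin and bradykinin receptors, and 1 of them was tested: Cxcr7 (now Ackr3), an atypical receptor of Cxcl12, which rose by log2 1.32 ± 0.21.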

How the data were processed

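The deposited table gives, per gene and library, raw values, which are estimated counts with decimals, and normalised values on a log2 scale, per the file headers. Genes were kept by the authors where all libraries of at least 1 fraction had a raw value of at least 50, per the file headers, so genes low in both fractions are not analysed here. Of the genes kept, 8509, Apln and Aplnr among them, passed in both. Another 1897 passed only through Input and 583 only through Positive, so falls of the former and rises of the latter are partly fixed by this rule. The build was mm10 and the tools include DESeq, per the submitters' processing notes; which aligner and counter were used, and whether strand was, is not stated in the labels. The estimated counts were rounded and analysed in R 4.3.3 by edgeR 4.0.16, using TMM factors (0.94 to 1.08), filterByExpr with a minimum count of 10, which removed 0 genes, and a quasi-likelihood test between the fractions, with a Benjamini-Hochberg adjusted p below 0.05 as threshold over all 10989 genes. The SE is the log2 fold change divided by the root of the F statistic. Ratios used log2 of CPM plus 0.5. The script was tested on simulated data. Libraries of one replicate number deviated together across genes (correlations of 0.45, 0.23 and 0.30), so the numbers were taken to pair the libraries, and a fit with the number as a block was an alternative. The others were RLE factors, library size alone, no filter, unrounded counts, DESeq2 1.42.0, limma 3.58.1 on the authors' deposited log2 values, and left-out libraries.

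The members and the 22 gene lists were chosen with earlier results of these data known; of 250 list entries, 209 matched by symbol, 6 by an older symbol and 1 by Entrez identifier, and 34 were not analysed here. Named are Apln and Aplnr, the genes of the gate, all tested genes of the apelin list, up to 3 members of the other lists by level with members called against the list's direction, and 5 genes nearest to each member without predicted or clone names. Further examples were picked with their values in view. A few list genes are not reported here and were left out of the lists' counts.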

Additional observations from a re-analysis of the deposited data

How the results depend on the processing

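Aplnr kept its direction and its call under every alternative run, with log2 from 2.97 (without Positive 1223) to 3.75 (without Input 1223). Apln kept its direction, and its call under every alternative but 1; over left-out libraries its log2 ran from 0.40 to 0.93. The receptor to ligand ratio stayed within 1 SD under each alternative, as did Aplnr relative to the pan-endothelial genes, which ran from 0.13 (without Positive 1223) to 0.71 (without Input 1223); Apln relative to them ran from -2.52 (without both libraries of 1223, where it moved by more than 1 SD) to -1.88 (without both of 1227). Genes higher in Positive numbered 2870, and from 1741 (without both libraries of 1227) to 2755 with libraries left out; other apelin genes that fell numbered 4, and from 1 to 4. With the replicate block, Apln (0.67) and Aplnr (3.32) kept their calls, 3298 and 3482 genes were higher and lower, and the receptor to ligand difference was 2.58 (exact sign-flip permutation p = 0.25, the smallest 3 pairs give). The setting without a filter could move nothing, since no gene was removed. Values near 0 changed sign without a call. With libraries left out, Adrbk1 ran from -0.051 (without Input 1223) to 0.39 and was -0.029 without both of 1223; Mef2c ran from -0.053 (without both of 1223) to 0.48 and was -0.0098 without Input 1223; Unc5b ran from -0.064 (without both of 1222) to 0.30 and was -0.015 without Input 1222; and Hif1a ran from -0.12 to 0.025 (without both of 1222), with 0.024 without both of 1227, 0.017 without Input 1222 and 0.0079 without Input 1227. With library size alone, Unc5b (-0.035) and Hdac5 (-0.015) turned, and by limma Hif1a (0.056). The cause was not tested. Counting error is widest for Aplnr in Input 1223, at 18.2% of its level.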

Other observations

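Other vasoactive peptide systems were split between the fractions. Of 19 tested genes 8 rose, 8 fell and 3 did not pass (median log2 0.18), beside 26.1% and 29.4% of all genes called higher and lower. For adrenomedullin, ligand and receptor rose together: Adm from 2.34 ± 0.50 to 14.8 ± 2.14 CPM (log2 2.60 ± 0.31), its receptor gene Calcrl from 39.8 ± 2.84 to 257.6 ± 35.4 CPM (2.69 ± 0.15) and the receptor partner Ramp2 from 94.9 ± 21.9 to 602.6 ± 90.0 CPM (2.67 ± 0.21). For endothelin, the ligand Edn1 (2.81 ± 0.21) and the converting enzyme Ece1 (2.43 ± 0.12) rose, while the receptor gene Ednrb fell from 388.5 ± 65.9 to 42.6 ± 9.18 CPM (-3.18 ± 0.20) and Ednra did not pass (-0.13 ± 0.21). Angiotensinogen, Agt, fell by 4.42 ± 0.31 on the log2 scale from 325.3 ± 84.0 CPM in Input, and the enzyme gene Ace also fell (-1.06 ± 0.20). Of the 3 systems, the apelin pair shared with adrenomedullin only the direction, in that ligand and receptor both rose. Adm rose by log2 2.60, within the range of the 18 pan-endothelial markers (2.59 to 3.20), while Apln rose by 0.69, below that range. Adm, at 1.80 CPM in Input 1223, was kept by the authors' raw value cut-off only through Positive. Its rise is therefore partly fixed by that rule. The same holds for the rise of Ramp3. It also holds for the falls of Npy, Ramp1, Npr2 and Npr3, which were kept only through Input. Whether the systems differ was not tested. All values are edgeR's, and each of the named rises and falls passed the test. Edn1, Adm, Agt, Calcrl, Ednra, Ace and the further genes named for the cut-off were named after their values were seen.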
